A study of Mus musculus with 12 samples.

Results

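Dark zone germinal center B cells from the spleens of mice given CTLA4-Ig and anti-CD40L were compared with the same cells from untreated mice. The libraries were chosen by their titles, DZ_Double for treated and DZ_Control for untreated, which gave 3 treated and 3 control libraries of the 12 in the series. The other 6 libraries hold light zone cells, in 3 treated and 3 control libraries, and are used here for the estimate of the spread and for the comparison between zones. All mice were NZBWF1/J, a hybrid strain that spontaneously develops a lupus-like disease, and every library was made from 1000 cells sorted by flow cytometry. Treated mice received 6 doses of 200 ug of CTLA4-Ig, which binds CD80 and CD86, together with 6 doses of 250 ug of anti-CD40L, an antibody to the T cell ligand of CD40. Dosing took 2 weeks from 18 weeks of age. The age of the untreated mice is not in the labels, nor is a control antibody. The labels also do not say whether the 3 libraries of a group come from separate mice, so every p-value measures the spread between these libraries only.

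A germinal center B cell alternates between a dark zone, where it divides and mutates its antibody genes, and a light zone, where it takes up antigen and receives help from T follicular helper cells. CD40 and its ligand, and CD28 with CD80 and CD86, carry much of that help, and both routes are blocked by the agents given here. Help received in the light zone sets, through MYC and the D cyclins, how often a cell divides after it returns to the dark zone.

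The dark zone label was checked against marker genes in CPM, counts relative to a library size scaled with edgeR's TMM factors. Cxcr4, a chemokine receptor that retains cells in that zone, read 83.4, 16.4 and 93.7 CPM in control and 77.9, 90.1 and 163 CPM in treated libraries. Light zone controls had 34.3 to 39.8 CPM of Cxcr4, so the second dark zone control was below them. Cd86, a light zone marker, was 11.1, 30.7 and 58.6 CPM in dark zone control and 171 to 233 CPM in light zone control libraries, with no overlap. The B cell genes Cd79a (1689 to 3218 CPM) and Ms4a1 (1337 to 2696 CPM) were present in each of the 6 dark zone libraries. The T cell gene Cd3e reached at most 4.36 CPM, and the macrophage gene Lyz2 at most 15.01 CPM. These single genes do not stand for their lists. Summed over all tested markers, the dark zone libraries held 250 to 384 CPM of T cell and 954 to 1409 CPM of macrophage and monocyte genes.

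Treated replicates 1 and 2 stood apart from the rest of the dark zone. Their log2 CPM values correlated at 0.958 to 0.973 with each other and with light zone treated replicate 2, whereas the other 63 pairs among the 12 libraries reached 0.629 to 0.854. These 3 libraries carry consecutive numbers in their file headers (37, 38 and 39), and treated replicate 3 carries 7. They also detected more genes. Of 12212 symbols, 12192 and 12188 had a count in treated replicates 1 and 2, against 11689 in treated replicate 3 and 11411 to 11960 in the dark zone controls. Total counts did not set them apart, at 21907505, 23425691 and 26508527 in the treated and 16032746, 24253373 and 19087430 in the control libraries. No pair of libraries of a group agreed within sampling noise, since chi-square per degree of freedom was 75.7 or more within every group.

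Their difference from the controls went with the GC content of transcripts. Relative to the control mean, the median gene of the lowest of 5 equal GC classes stood at -0.50 (log2) in treated replicate 1 and -0.46 in replicate 2, and that of the highest class at 1.38 and 1.33. In treated replicate 3 the same medians were -0.08 and 0.00. A smooth surface over GC content and transcript length held 22.2% and 20.3% of the variance of these deviations in treated replicates 1 and 2, 0.942% in replicate 3 and 1.95% to 3.50% in the controls. Genes of transcripts shorter than 500 bases had medians of -0.31, -0.56 and -0.29 in the treated libraries, against -0.12 to 0.23 in the controls. The deviations also went with the level of a gene. With genes ranked in 6 equal classes by their mean in the light zone controls, the median of the highest class was -1.05, -0.96 and -0.02 in treated replicates 1, 2 and 3, and that of the lowest 2.11, 2.02 and -0.12. The part of GC content, length, level or library preparation in the results below was not tested. The median transcript length was 704 bases in complex I genes and 689 bases in cytosolic ribosomal protein genes, against 2133 bases over all genes. Gene lists are therefore described library by library, with values from a fit of 9 libraries without the 3 that stood apart and from a fit with a GC and length offset per library. In the fit of 9 libraries, treated replicate 3 is the lone treated dark zone library and is assumed to vary like the other groups.

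**Figure D1:**
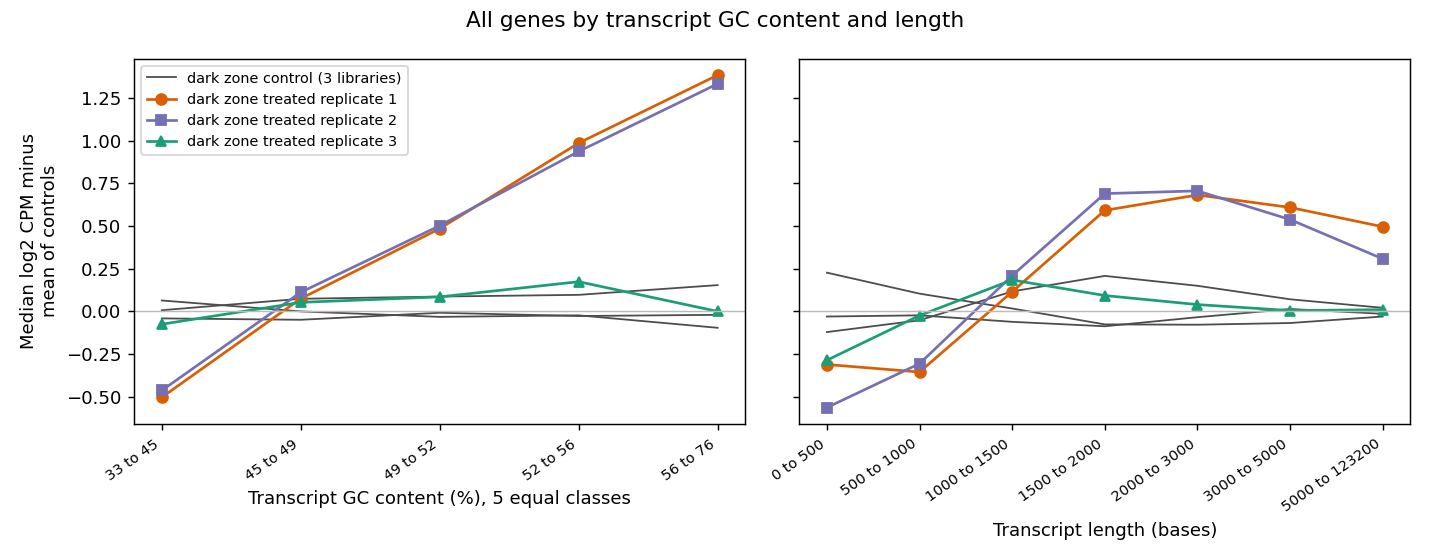
Median over all genes of the log2 CPM difference from the mean of the 3 dark zone controls (vertical axis), by 5 equal classes of transcript GC content in percent (left) and by transcript length in bases (right). Grey lines are the 3 controls. Treated replicates 1 and 2 climb across the GC classes, from -0.50 to 1.38 and from -0.46 to 1.33, while treated replicate 3 stays between -0.08 and 0.17.

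No gene passed the test across the whole table. Of 12081 genes tested, 0 (0%) had an adjusted p under 0.05 by edgeR's quasi-likelihood test with Benjamini-Hochberg adjustment, and the smallest adjusted p was 0.528. At an unadjusted p under 0.05 edgeR gave 1075 genes (8.90%), 588 higher (4.87%) and 487 lower (4.03%) in treated cells. The fitted difference was above 0 in 6305 genes (52.2%). DESeq2 called 73 of 11766 genes (0.620%), 49 higher and 24 lower. In 2866 genes (23.7%) the 3 treated and 3 control libraries did not overlap, 1514 of them higher (12.5%) and 1352 lower (11.2%) in treated cells. With plain library sizes in place of TMM factors the split was 2107 higher and 962 lower, since that scaling moves the median of all genes from 0.06 to 0.51 (log2). The median of all genes in the single treated libraries was 0.37, 0.36 and 0.03 with TMM factors. Differences below are treated minus control on a log2 scale, each with its standard error (SE). No gene below passed edgeR's adjusted threshold, and "higher" and "lower" describe values, not calls.

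Gene lists showed which kinds of gene differed in the same direction in all treated libraries. Of 46 lists, 6 had all 3 treated library medians below all 3 control medians. They were respiratory complexes I, III and IV, ATP synthase, and the cytosolic and mitochondrial ribosomal proteins. Complex I met this only narrowly, at -0.274 in treated replicate 3 against -0.266 in the lowest control. In 13 lists the treated medians were all above the controls. Among them were the B cell receptor, costimulation and CD40, light zone, S phase, G2 and M phase, D cyclin, actin and cholesterol synthesis lists. The median of all genes was itself 0.37, 0.36 and 0.03 in the treated libraries. Below it lay the S phase list in treated replicate 1 (0.13) and the G2 and M phase list in treated replicates 1 and 2 (0.25 and 0.31). T cell markers, listed to look for other cells, and the immediate early and dissociation list were also among the 13. The latter shares Egr1, Myc, Nr4a1 and Cd69 with the light zone list, so handling and activation cannot be told apart in it. For many other lists, such as glycolysis, MHC class I and interferon-stimulated genes, treated replicates 1 and 2 went one way and treated replicate 3 stayed within or crossed below the controls.

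**Figure D2:**
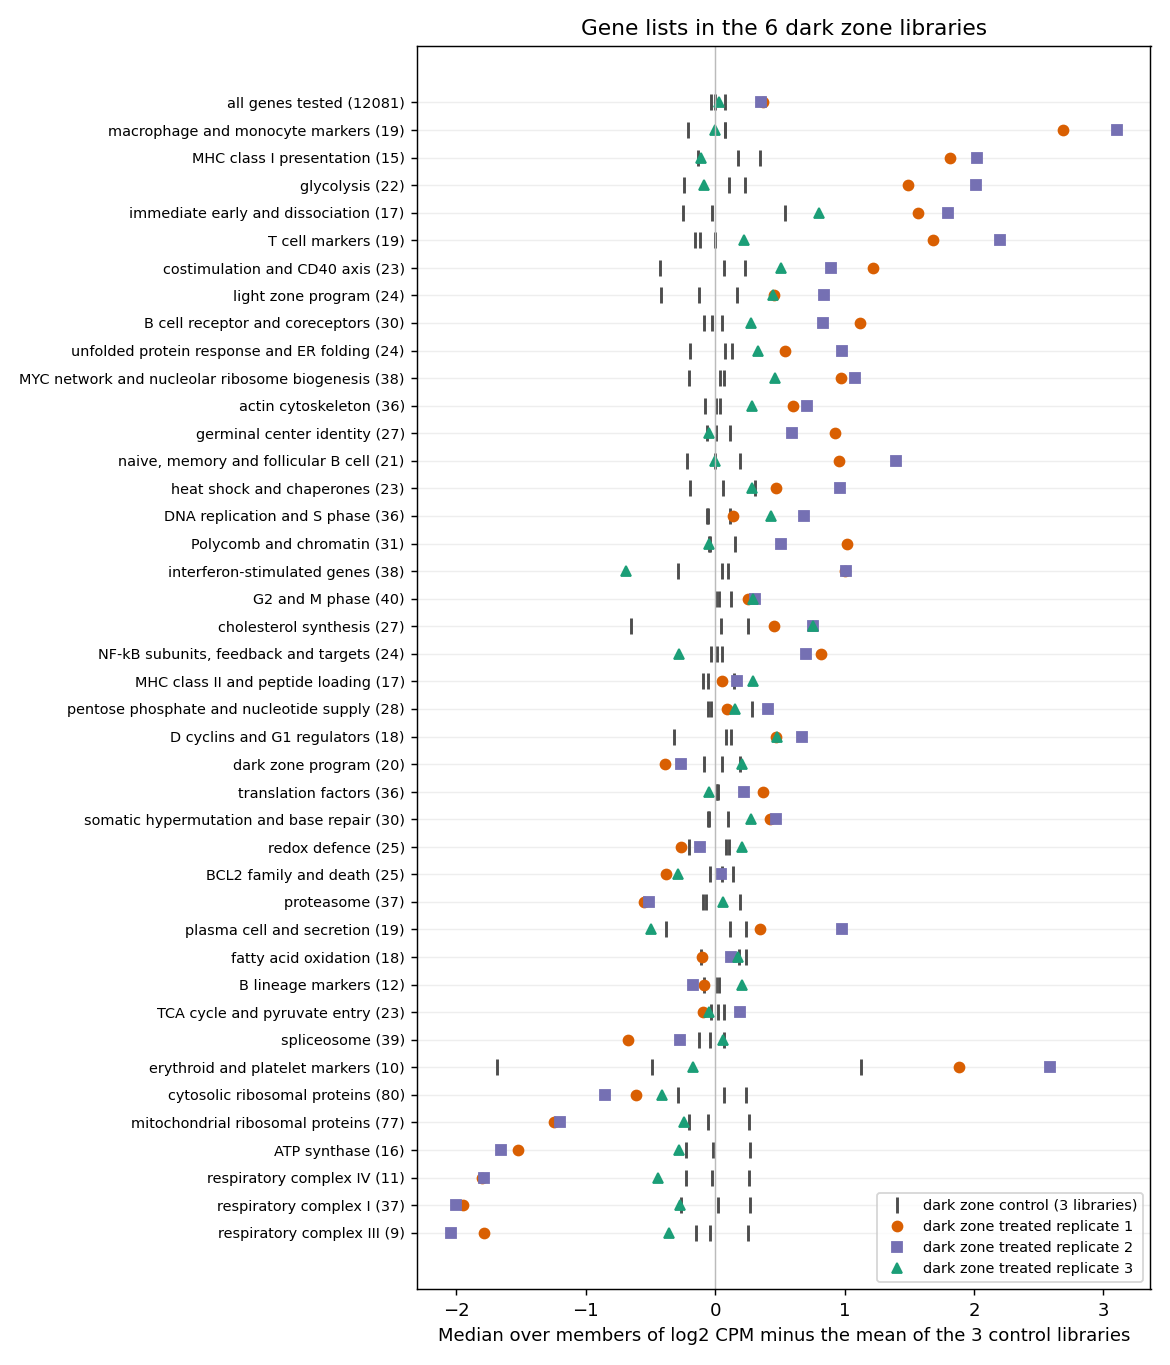
Median over the members of each gene list of log2 CPM minus the mean of the 3 dark zone controls, in each of the 6 dark zone libraries, for lists with at least 9 members tested (number in brackets). Bars are controls and coloured symbols treated libraries. Respiratory and ribosomal protein lists lie below the controls in all 3 treated libraries, while macrophage, MHC class I and glycolysis genes are high in treated replicates 1 and 2 only.

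The respiratory chain passes electrons from NADH and succinate to oxygen through complexes I to IV, and ATP synthase uses the resulting proton gradient. Their nuclear genes are read by factors that include NRF1 and the ETS protein GABP. RefSeq promoters (build GRCm38.p6, the 250 bases before each start) were matched for 64 of the 77 respiratory and ATP synthase genes tested. The core of the NRF1 motif, GCGCA followed directly by its reverse complement TGCGC and so the same on both strands, was found in 4 of the 64 (6.25%), in 1.70% of 9389 matched genes tested and in 0.781% of 27025 promoters in the table. The 4 promoters are printed because they share that motif. Their genes had a lower fitted level in treated cells, as did 66 of the 77 genes of the set. Whether the motif goes with the level was not tested. Each line gives 100 bases of the promoter, 5′ to 3′ on the gene's strand, with the motif in capitals.
Ndufa11: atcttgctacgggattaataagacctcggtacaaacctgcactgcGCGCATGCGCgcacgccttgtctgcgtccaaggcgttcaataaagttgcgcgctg
Cox6a1: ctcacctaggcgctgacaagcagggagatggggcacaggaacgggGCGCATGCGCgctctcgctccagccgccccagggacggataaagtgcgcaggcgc
Atp5g2: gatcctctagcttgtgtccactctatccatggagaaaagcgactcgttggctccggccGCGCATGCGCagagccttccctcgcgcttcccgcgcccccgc
Atp5k: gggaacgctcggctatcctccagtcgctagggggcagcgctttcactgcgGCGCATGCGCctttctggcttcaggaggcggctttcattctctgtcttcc
They lie at chr17:56717657-56717756 (plus strand), chr5:115349066-115349165, chr15:102671048-102671147 and chr5:108434400-108434499 (all minus strand). The ETS letters CCGGAAG, searched on both strands, were in 11 of the 64 promoters (17.2%) against 14.5% of genes tested and 7.05% of all promoters. Also on both strands, CCAAT was in 26 of the 64 (40.6%, against 37.3% of genes tested and 34.5% of all promoters), CACGTG in 6 (9.38%, against 8.41% and 6.05%), TATAAA in 5 (7.81%, against 6.52% and 13.0%) and AAGATGG in 0, against 4.50% and 4.53%. A match is a description of the letters only.

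Ndufa11, an accessory subunit of complex I, stood at 1265, 1432 and 1021 CPM in control and 249, 263 and 880 CPM in treated libraries (-1.42, SE 0.63). Atp5k, a small subunit of ATP synthase, read 325, 391 and 261 CPM in control and 82.6, 65.9 and 232 CPM in treated libraries (-1.36, SE 0.59). For both genes the groups did not overlap, and treated replicate 3 lay just under the lowest control. Atp5g2, which encodes a copy of the c ring subunit, had 844, 842 and 596 CPM against 303, 378 and 608 CPM (-0.82, SE 0.42), with treated replicate 3 inside the control range. Cox6a1, a complex IV subunit, had 2076, 2580 and 1918 CPM in control and 739, 834 and 2570 CPM in treated libraries (-0.67, SE 0.56), and its treated replicate 3 matched the highest controls.

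In complex I, which oxidises NADH, 15 of 37 genes were lower without overlap, against 11.2% of all genes. In all, 33 of the 37 were lower, with a list median of -1.20. The highest expressed, Ndufa4, was at 1914, 2215 and 1777 CPM in control and 267, 350 and 1361 CPM in treated libraries (-1.58, SE 0.73). Ndufa1 had 1341, 1581 and 1086 CPM against 277, 230 and 1047 CPM (-1.37, SE 0.66), and Ndufb11 973, 1343 and 987 CPM against 292, 294 and 798 CPM (-1.25, SE 0.58). All 3 showed the same order, with treated replicates 1 and 2 far below the controls and replicate 3 slightly below them.

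Complex III, which passes electrons to cytochrome c, had 6 of 9 members lower, all 6 without overlap against 11.2% of all genes (median -1.21). Its small subunit Uqcrb read 1278, 1582 and 1117 CPM in control and 167, 213 and 776 CPM in treated libraries (-1.78, SE 0.74). Uqcr10 had 1770, 1991 and 1541 CPM against 349, 276 and 1154 CPM (-1.58, SE 0.65). Complex IV, which reduces oxygen, had 11 of 11 members lower and 7 without overlap, against the same 11.2% (median -1.11). Cox6c had 2532, 2819 and 2212 CPM in control and 389, 401 and 1755 CPM in treated libraries (-1.57, SE 0.71). Complex II, whose 4 subunits also serve the citric acid cycle, had 3 of 4 lower (median -0.46) and no member lower without overlap.

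ATP synthase had 13 of 16 genes lower, 8 of them without overlap against 11.2% of all genes, with a median of -1.04. Atp5l, a small membrane subunit, read 1980, 2216 and 1769 CPM in control and 335, 296 and 1415 CPM in treated libraries (-1.54, SE 0.73). The 3 higher members were the alpha and beta subunits, which form the catalytic head, and Atp5d, whose groups did not overlap. Atp5b, the beta subunit, had 540, 430 and 526 CPM in control and 1810, 2100 and 644 CPM in treated libraries (1.61, SE 0.55), without overlap. Atp5a1, the alpha subunit, had 476, 272 and 426 CPM against 1264, 1505 and 415 CPM (1.44, SE 0.56), with treated replicate 3 inside the control range.

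Members with short transcripts were nearly all lower, while those with longer transcripts went both ways. Among the 58 respiratory and ATP synthase genes with transcripts shorter than 1000 bases, 55 were lower, with a median of -1.21. Among the 19 with longer transcripts, 11 were lower and 8 higher, with a median of -0.34. Over all tested genes, 1272 of 2115 with shorter transcripts were lower (median -0.35) and 4020 of 9173 with longer ones (median 0.20). The longer members that were higher included Ndufv1 of the complex I core, the complex II flavoprotein Sdha and the complex III core protein Uqcrc2, chosen after their values were seen. Sdha, for example, had 73.3, 48.3 and 103 CPM in control and 146, 202 and 108 CPM in treated libraries (1.02, SE 0.51). The length cut was also chosen after the values were seen. Length here is the median over a gene's annotated protein-coding transcripts, so it can differ from that of the transcript expressed. By this measure Ndufs1 (651 bases) and Uqcrc1 (533 bases) fell among the shorter and Ndufb2 (2413 bases) among the longer. The split with another measure of length was not tested.

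**Figure D3:**
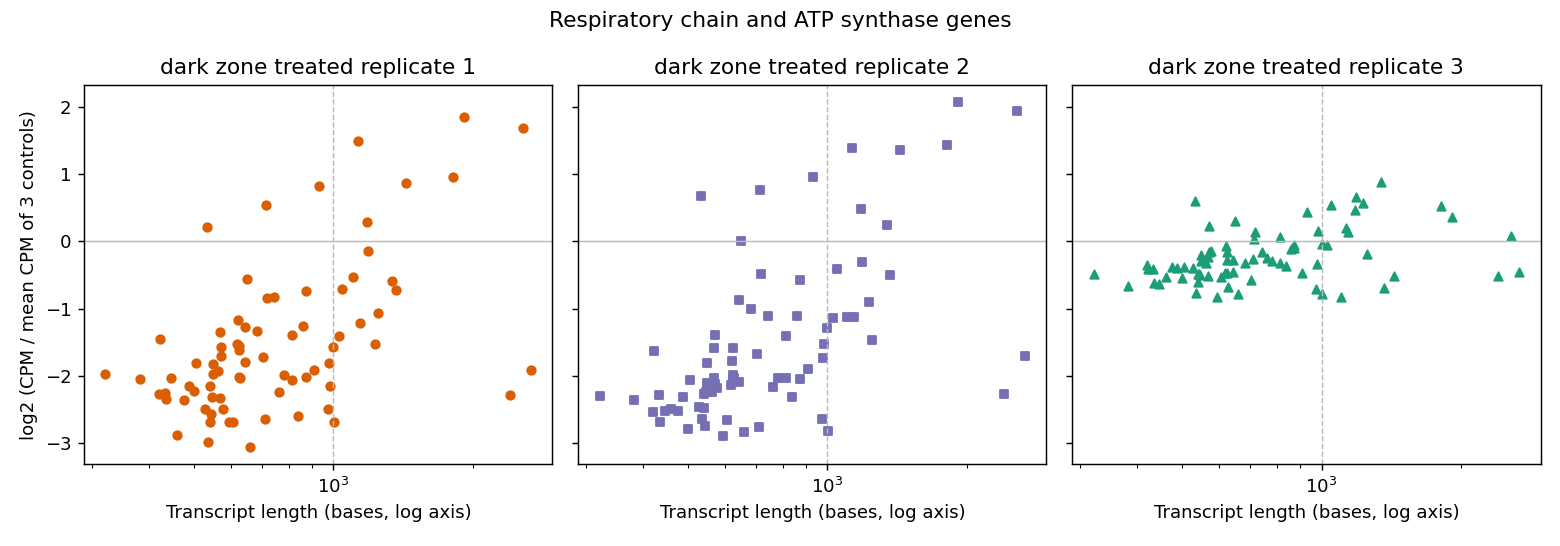
Each point is a nuclear gene of the respiratory chain or ATP synthase. The horizontal axis is transcript length in bases (log axis, dashed line at 1000) and the vertical axis log2 of the CPM in a treated library over the mean CPM of the 3 dark zone controls, with a panel per treated library. Most points left of the line lie below 0 in treated replicates 1 and 2 and nearer to 0 in replicate 3, while the longest transcripts spread to both sides.

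The size of these differences depended on the libraries, and for some members so did the sign. The medians of complexes I, III and IV and ATP synthase in treated replicate 3 were -0.27, -0.36, -0.44 and -0.28, against lowest control medians of -0.27, -0.15, -0.23 and -0.22. In the fit of 9 libraries they were -0.30, -0.37, -0.46 and -0.28, with 31 of 37, 6 of 9, 10 of 11 and 12 of 16 members lower. In the same fit the complex II median turned to 0.35, with 4 of 4 members higher, and Cox6a1 turned to 0.24. The members with transcripts shorter than 1000 bases had a median of -0.35 there, and the longer ones 0.10. The median of all genes in that fit was -0.11. With the GC and length offset the medians were -0.74, -0.52, -0.79 and -0.65, against 0.11 for all genes. None of these genes passed edgeR's adjusted threshold in either fit.

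Ribosomal protein genes encode the structural proteins of the ribosome, of the cytosol or of mitochondria. Of the 80 cytosolic genes, 72 were lower (median -0.64) and 46 were lower without overlap, against 11.2% of all genes. The library medians were -0.61, -0.85 and -0.41 in treated libraries, below the lowest control median of -0.28. Among the highest expressed, Rps14 had 4223, 4814 and 4057 CPM in control and 1162, 1049 and 2347 CPM in treated libraries (-1.52, SE 0.53), without overlap. Rpl13 (-0.16, SE 0.28) overlapped. In the fit of 9 libraries 74 of 80 members were lower, with a median of -0.41. With the GC and length offset the list median was -0.16 and treated replicate 1 stood at 0.05, inside the offset control range of -0.21 to 0.12. In RefSeq promoters the letters CCGGAAG were present for 18 of the 59 matched cytosolic members (30.5%), against 14.5% of genes tested. Many ribosomal protein genes have near-identical processed pseudogenes, so the counts of single members are uncertain.

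Of 77 mitochondrial ribosomal proteins, 64 were lower (median -0.87) and 29 were lower without overlap, against 11.2% of all genes. The median was -0.65 with the offset and -0.29 in the fit of 9 libraries, where 25 were higher and 52 lower. Mrpl42 had 1096, 1249 and 1096 CPM in control and 114, 158 and 742 CPM in treated libraries (-1.76, SE 0.81). Mrps21 read 790, 1016 and 659 CPM against 154, 167 and 614 CPM (-1.40, SE 0.69). In treated replicate 3 the list median was -0.24, just under the lowest control at -0.20. The MYC network and nucleolar list, whose genes build ribosomes rather than form them, had 27 of 38 members higher (median 0.62). Without overlap 9 were higher and 4 lower, against 12.5% and 11.2% of all genes. Among the 4 were the assembly factors Nhp2 (-0.81, SE 0.43) and Nip7 (-0.84, SE 0.42), and Npm1 at 749, 758 and 610 CPM against 297, 383 and 595 CPM. None of the 9 is named here, so these genes do not stand for the list.

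Other energy pathways did not follow the respiratory genes. The citric acid cycle list had 11 of 23 higher (median -0.22), and fatty acid oxidation 7 of 18 higher (median -0.16). Glycolysis, the conversion of glucose to pyruvate, had 20 of 22 higher (median 1.18) with 5 without overlap, against 12.5% of all genes. Its library medians were 1.49, 2.02 and -0.09, and in the fit of 9 libraries 11 members were higher and 11 lower (median -0.11). Ldha, which makes lactate, had 747, 696 and 567 CPM in control and 1177, 1733 and 853 CPM in treated libraries (0.90, SE 0.48), without overlap. Gapdh had 1415, 1387 and 1581 CPM against 3497, 3874 and 1509 CPM (1.02, SE 0.48), and treated replicate 3 was within the controls. With the offset for GC and length the glycolysis median was 0.93, high in treated replicates 1 and 2 (1.29 and 1.82) and not in replicate 3 (-0.20).

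Receptors and ligands of T cell help overlapped between groups in most cases. Cd40, the receptor whose ligand was blocked, had 36.1, 71.8 and 64.7 CPM in control and 38.3, 50.5 and 59.4 CPM in treated libraries (-0.22, SE 0.37). Cd86, bound by CTLA4-Ig, had 11.1, 30.7 and 58.6 CPM against 36.2, 38.2 and 105 CPM (0.84, SE 0.62), highest in treated replicate 3. Cd80, the other ligand bound, was at most 1.16 CPM in any dark zone library. Icosl, which engages ICOS on T cells, ranged from 0 to 15.9 CPM with full overlap. Il21r, the receptor of the T cell cytokine IL-21, did not overlap, at 23.3, 15.1 and 25.6 CPM in control and 139, 141 and 32.8 CPM in treated libraries (2.29, SE 0.80). Tnfrsf13c, the receptor of the survival factor BAFF, was 258, 138 and 314 CPM against 520, 420 and 334 CPM (0.84, SE 0.48), also without overlap.

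The costimulation and CD40 list had 16 of 23 members higher (median 0.84), 6 of them without overlap, against 12.5% of all genes. Its library medians were 1.22, 0.90 and 0.51, above the highest control at 0.23, and its median was 0.75 with the GC and length offset and 0.36 in the fit of 9 libraries. Among the 6 were the adaptors Traf2 and Traf5, which carry signals from CD40 and related receptors. Traf5 had 39, 12.7 and 43.2 CPM in control and 67.9, 51.7 and 128 CPM in treated libraries (1.38, SE 0.65). Tnfsf9, the ligand 4-1BBL, was the member lower without overlap, at 58.0, 40.3 and 36.0 CPM against 14.5, 18.6 and 16.8 CPM (-1.43, SE 1.17). Traf2, Traf5 and Tnfsf9 were chosen after their values were seen. NF-kB genes, which CD40 induces, had 15 of 24 higher (median 0.29), with a negative median in treated replicate 3 (-0.28). Nfkbia, the inhibitor that NF-kB itself induces, had 173, 123 and 123 CPM against 246, 293 and 168 CPM (0.75, SE 0.37).

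Of the zone identity lists, the light zone genes were mostly higher, beside 52.2% of all genes, and the dark zone genes went both ways. The dark zone list had 11 of 20 higher and 9 lower (median 0.10). Its most expressed members, Stmn1 (-0.92, SE 0.68) and Gcsam (-0.79, SE 0.64), were low in treated replicates 1 and 2 and within the control range in replicate 3. Rgs13, a regulator of chemokine signals, had 1849, 2184 and 2259 CPM in control and 248, 166 and 1517 CPM in treated libraries (-1.70, SE 0.86), without overlap. The GC content of Rgs13 transcripts is 34.4%, and with the GC and length offset its difference was -0.51. The light zone list had 16 of 24 higher (median 0.80, 0.45 with the offset and 0.36 in 9 libraries). Without overlap 5 were higher and 1 lower, against 12.5% and 11.2% of all genes. Its treated library medians were 0.45, 0.84 and 0.45, and those of all genes 0.37, 0.36 and 0.03. With the offset they were 0.13, 0.33 and 0.41, against 0.42, 0.41 and 0.05 for all genes. The list thus lay below the median gene in treated replicates 1 and 2 with the offset. Cd83, the light zone sorting marker in common use, overlapped fully at 309, 52.5 and 237 CPM against 143, 162 and 217 CPM (-0.20, SE 0.52).

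For most regulators of the germinal center state the groups overlapped. Bcl6, the repressor that defines the germinal center state, had 265, 78.9 and 93.2 CPM in control and 92.0, 81.0 and 59.7 CPM in treated libraries (-0.91, SE 0.49). The first control held the highest value, and the other 5 libraries overlapped. Foxo1, a transcription factor of the dark zone program, had 121, 20.9 and 61.9 CPM against 261, 228 and 74.1 CPM (1.47, SE 0.66). Ezh2, the Polycomb methyltransferase, had 112, 167 and 96.7 CPM against 140, 116 and 63.6 CPM (-0.23, SE 0.39). Bach2 (-0.43, SE 0.38), S1pr2 (0.77, SE 0.60) and Pou2af1 (0.10, SE 0.36) overlapped as well. Fas did not overlap, at 180, 203 and 153 CPM in control and 40.7, 42.8 and 138 CPM in treated libraries (-1.28, SE 0.63). Mef2b, an activator of Bcl6, had 196, 268 and 389 CPM against 519, 688 and 410 CPM (0.92, SE 0.35), without overlap, but its difference was -0.01 with the GC and length offset at a GC content of 64.1%. Prdm1 and Irf4, which drive plasma cell formation, stayed at or below 11.3 CPM in all 6 libraries.

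**Figure D4:**
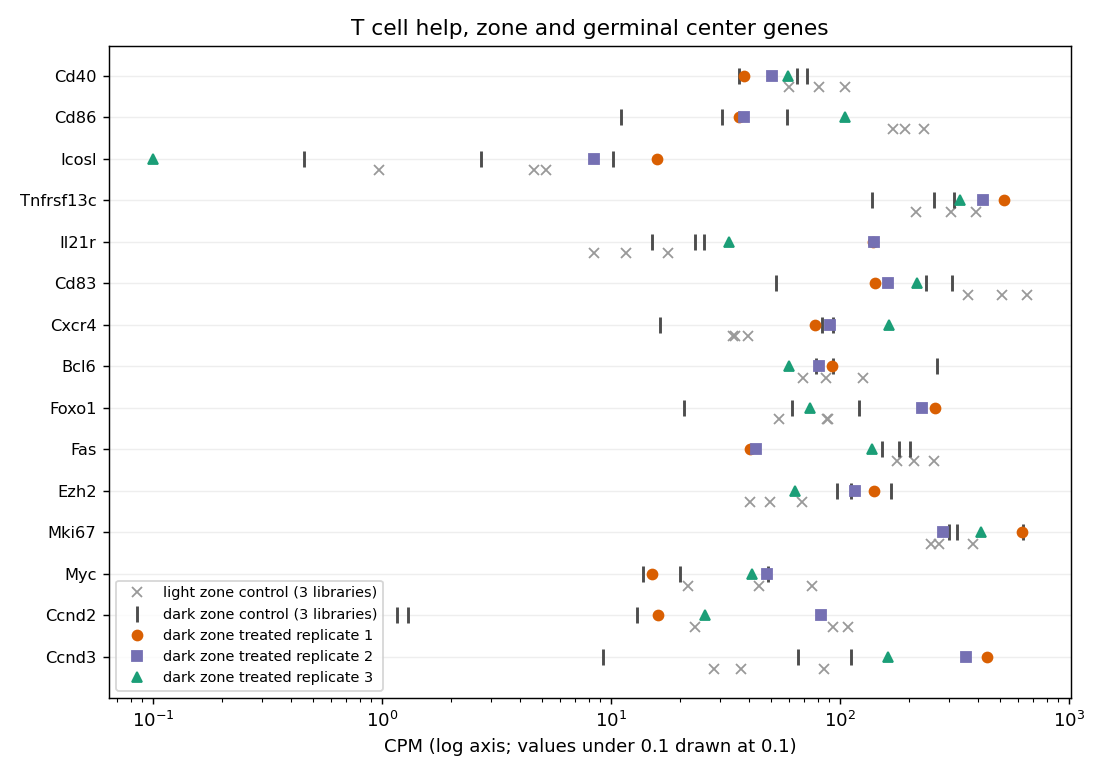
CPM on a log axis of genes of T cell help, zone identity and the germinal center program, with values under 0.1 drawn at 0.1. Bars are the 3 dark zone controls, coloured symbols the treated libraries and crosses the 3 light zone controls. Il21r, Tnfrsf13c, Ccnd2 and Ccnd3 lie above the dark zone controls in all 3 treated libraries and Fas below them, while Cd40, Cd83 and Bcl6 overlap.

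The D cyclins start a new division round and are set by T cell help. Ccnd3, the D cyclin of the dark zone, had 65.8, 9.26 and 112 CPM in control and 437, 355 and 162 CPM in treated libraries (2.35, SE 0.98). Ccnd2 had 1.30, 1.16 and 13 CPM against 16.04, 82.3 and 25.7 CPM (3.001, SE 1.13). Neither overlapped, and both kept their sign with the GC and length offset (1.87 and 3.17) and in the fit of 9 libraries (1.40 and 2.34). Myc overlapped, at 48.5, 20.0 and 13.8 CPM against 15.1, 47.9 and 41.5 CPM (0.34, SE 0.69). The list of D cyclins and G1 regulators had 12 of 18 members higher (median 0.25). Without overlap 6 were higher and 1 lower, against 12.5% and 11.2% of all genes. The span of Ccnd3 overlaps that of Bysl on the other strand, and reads from any shared exon bases cannot be told apart.

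Cdkn1a, which encodes the cell cycle inhibitor p21, was at 0 CPM in all 3 controls and at 15.2, 13.8 and 8.89 CPM in treated libraries. Its mean was at least 73.4-fold higher against a floor of 3 counts per control library. The gene lies at chr17:29090976-29100727 (GENCODE M21, mm10). In the light zone it was 0, 15.7 and 8.20 CPM in control and 0.117, 10.99 and 23.9 CPM in treated libraries, so values at 0 or near it occurred in both light zone groups. The fitted difference depends on the prior count and is not given.

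S phase genes, which copy DNA, had 24 of 36 members higher (median 0.43), with 8 higher and 0 lower without overlap, against 12.5% and 11.2% of all genes. Cdc6, which loads the replicative helicase, had 17.5, 12.2 and 21.9 CPM in control and 48.9, 74.6 and 39.3 CPM in treated libraries (1.66, SE 0.50), and Mcm3, a helicase subunit, 138, 84.0 and 119 CPM against 199, 201 and 245 CPM (0.92, SE 0.67). Cdc6 and Mcm3 were chosen after their values were seen. The most expressed members went otherwise. Pcna, the sliding clamp, had 920, 1153 and 865 CPM against 312, 442 and 1099 CPM (-0.67, SE 0.57), and Slbp, Dut and Rrm2 overlapped too. In the fit of 9 libraries, 30 of 36 were higher (median 0.41), and with the GC and length offset the median was 0.34.

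Mitosis genes had 26 of 40 members higher (median 0.33), 8 higher and 1 lower without overlap, against 12.5% and 11.2% of all genes. The library medians were 0.25, 0.31 and 0.30, against 0.01 to 0.12 in controls. Over all genes the treated medians were 0.37, 0.36 and 0.03, so in treated replicates 1 and 2 the list lay below the median gene. With the offset and in the fit of 9 libraries the list median was 0.57 and 0.26. Mki67, the proliferation marker, was 632, 300 and 323 CPM in control and 621, 281 and 414 CPM in treated libraries (0.07, SE 0.43), so it did not separate the groups. Cdk1 (-0.23, SE 0.67), Ccnb2 (-0.54, SE 0.71) and Smc4 (-0.25, SE 0.31) overlapped.

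The hypermutation list holds mainly repair enzymes that process the lesions made during antibody gene mutation. It had 15 of 30 higher and 15 lower, while 9 were higher and 2 lower without overlap, against 12.5% and 11.2% of all genes. Its median was -0.001 here and above 0 in 11 of 16 other settings, at 0.36 with the offset and 0.23 in the fit of 9 libraries, where 20 of 30 were higher. Polh, the error-prone polymerase of A and T mutations, had 0, 12.9 and 7.21 CPM in control and 20.3, 27.9 and 18.0 CPM in treated libraries (1.72, SE 2.08). Ung, which removes uracil from DNA, had 3.02, 33.7 and 7.80 CPM against 40.2, 39.8 and 18.1 CPM (1.14, SE 0.93) and overlapped. The ligase Lig1, chosen after its values were seen, had 104, 43.2 and 106 CPM against 203, 236 and 182 CPM (1.30, SE 0.38).

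B cell receptor genes had 22 of 30 members higher (median 0.69), against 52.2% of all genes, and 8 were higher without overlap, against 12.5%. The receptor's own signalling chains did not share this, since Cd79a (-0.24, SE 0.32) and Cd79b (-0.29, SE 0.34) overlapped, and the phosphatase Ptprc was lower at 844, 648 and 472 CPM against 354, 284 and 407 CPM (-0.91, SE 0.35). Nfatc1, a calcium-driven transcription factor downstream of the receptor, was chosen after its values were seen. It had 15.97, 6.53 and 16.6 CPM against 68.5, 96.8 and 52.6 CPM (2.48, SE 0.84) and remained at 1.97 with the offset and 2.03 in the fit of 9 libraries. The list median was 0.36 with the offset and 0.25 in the fit of 9 libraries.

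Interferon-stimulated genes, induced by type I interferon that is prominent in lupus, went in both directions. Of 38 tested, 21 were higher and 17 lower (median 0.39), with library medians of 1.001, 1.013 and -0.69. Without overlap, 8 were higher and 6 lower, against 12.5% and 11.2% of all genes. The median was -0.04 with the GC and length offset and -0.88 in the fit of 9 libraries. Ifi27 (chr12:103434211-103440239) had 89.0, 203 and 79.7 CPM in control and 33.4, 38.8 and 26.5 CPM in treated libraries (-1.92, SE 0.44). Its neighbour Ifi27l2a (chr12:103442167-103443680) had 613, 727 and 457 CPM against 128, 98.4 and 238 CPM (-1.95, SE 0.46). Xaf1, an interferon-induced cell death factor, had 26.3, 40.9 and 32.5 CPM against 8.60, 10.3 and 9.09 CPM (-1.83, SE 0.53). None of the 3 overlapped. DESeq2 gave them adjusted p-values of 0.00941, 0.0237 and 0.0303, and edgeR's quasi-likelihood test with Benjamini-Hochberg adjustment 0.528 for each. Their differences were -1.55, -1.34 and -0.97 with the GC and length offset and -2.21, -1.32 and -1.86 in the fit of 9 libraries. Ifi27 and Ifi27l2a are related in sequence, so reads could be shared.

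Treated light zone libraries were lower than light zone controls in the same 3 genes, without overlap. Ifi27 was 87.3 to 141 CPM in light zone control and 33.0 to 58.0 CPM in treated libraries, Ifi27l2a 372 to 535 against 82.9 to 251 CPM, and Xaf1 43.0 to 62.3 against 9.85 to 35.1 CPM. The interferon list had 6 members lower and 8 higher without overlap in the dark zone. None of the 8 higher members is named here, so the genes named do not stand for the list. A pair of further lower members, chosen after their values were seen, had a similar pattern in the dark zone. Zbp1, a nucleic acid sensor, had 119, 45.4 and 51.0 CPM against 24.2, 20.4 and 18.6 CPM (-1.77, SE 0.54), and Oasl2 30.3, 32.8 and 21.4 CPM against 11.2, 11.9 and 15.5 CPM (-1.13, SE 0.55).

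Antigen presentation genes are given by class, and a difference between class I and class II was not tested. MHC class I had 13 of 15 members higher (median 1.35), but its treated replicate 3 median was -0.11, within the controls. The median was -0.13 in the fit of 9 libraries. Without overlap 2 were higher and 1 lower, against 12.5% and 11.2% of all genes. Summed over the list, class I genes were 4178 to 5197 CPM in control and 2848, 4084 and 3424 CPM in treated libraries. B2m, the invariant chain of class I, was lower at 3434, 4474 and 3285 CPM against 636, 1247 and 2611 CPM (-1.32, SE 0.55), and at -0.15 with the offset. MHC class II had 10 of 17 higher (median 0.27), with 4 higher and 0 lower without overlap, against 12.5% and 11.2% of all genes. H2-Ab1 had 832, 647 and 960 CPM in control and 1454, 1598 and 1067 CPM in treated libraries (0.76, SE 0.31), and H2-Eb1 895, 938 and 899 CPM against 1875, 2470 and 1248 CPM (1.03, SE 0.44). Their partners Cd74 (-0.14, SE 0.28) and H2-Aa (-0.30, SE 0.35) overlapped.

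Actin genes, which shape the contacts of a B cell, were among the most abundant that differed. Actb had 3096, 2860 and 2678 CPM in control and 13880, 23300 and 3508 CPM in treated libraries (2.24, SE 0.64), and 0.30 in the fit of 9 libraries. Tmsb4x, which sequesters actin monomers, had 24430, 28300 and 22450 CPM against 5089, 5274 and 21900 CPM (-1.22, SE 0.63). Actg1 had 1636, 1206 and 1370 CPM against 2630, 4051 and 2040 CPM (1.05, SE 0.36). All 3 were without overlap, but treated replicate 3 lay near the controls in Actb and Tmsb4x. The list had 22 of 36 higher (median 0.57, 0.28 with the offset and 0.19 in the fit of 9 libraries). Without overlap 9 were higher and 4 lower, against 12.5% and 11.2% of all genes. Cap1, which recycles actin monomers, was among these 9 and was chosen after its values were seen, with 49.97, 78 and 77.9 CPM against 156, 139 and 144 CPM (1.09, SE 0.34).

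The 10 genes per direction with the smallest p-values, among those without overlap, with at least a 2-fold difference and a higher group averaging 10 CPM or more, came from 809 higher and 833 lower genes that met these limits. All 20 had an adjusted p of 0.528 by edgeR's quasi-likelihood test with Benjamini-Hochberg adjustment, and all 20 were among the 73 genes DESeq2 called. Siah2, a ubiquitin ligase of the hypoxia response, had 37.4, 30.5 and 49.0 CPM in control and 92.8, 108 and 91.8 CPM in treated libraries (1.32, SE 0.32). Rbm17, a splicing factor, had 44.4, 42.7 and 50.6 CPM against 107, 112 and 115 CPM (1.27, SE 0.33). In these 2 genes the treated libraries lay close together, treated replicate 3 included. With the GC and length offset Siah2 stood at 0.60 and Rbm17 at 1.56.

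Grina (chr15:76246764-76249904), a membrane protein linked to calcium and cell survival, had 0, 0 and 0.265 CPM in control and 16.4, 10.9 and 32.3 CPM in treated libraries. Klhdc3, a substrate receptor of a ubiquitin ligase, had 0.0685, 0.0506 and 0.902 CPM against 45.5, 34.9 and 8.89 CPM, and Top1mt, the mitochondrial topoisomerase, 0.274, 0.709 and 0.530 CPM against 5.18, 5.40 and 21.4 CPM (4.38, SE 0.98). Clpb, a mitochondrial disaggregase, had 0.548, 1.37 and 0.902 CPM against 21.8, 22.3 and 14.1 CPM (4.36, SE 1.07). In these 4 genes the controls lay between 0 and 1.37 CPM, where 3 counts amount to 0.152 to 0.206 CPM. Prex1, an activator of Rac, had 2.40, 1.82 and 3.71 CPM against 22.4, 11.97 and 13.1 CPM (2.58, SE 0.59). In the light zone Prex1 was 8.77, 14.9 and 9.82 CPM in control and 35.4, 36.4 and 34.5 CPM in treated libraries.

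Eefsec, the elongation factor for selenocysteine, had 3.70, 7.08 and 15.96 CPM in control and 66.2, 49.5 and 62.5 CPM in treated libraries (2.73, SE 0.64). Rrp7a, a ribosome assembly protein, had 2.19, 3.95 and 11.3 CPM against 70.2, 45.4 and 27.8 CPM (3.03, SE 0.72). Cnp, a phosphodiesterase, had 83.1, 58.0 and 105 CPM against 344, 454 and 259 CPM (2.10, SE 0.46). The spans of Cnp, Rrp7a and Klhdc3 overlap those of Dnajc7, Serhl and Mea1 on the other strand. The kit does not keep the strand, so reads from any shared exon bases cannot be told apart. Other genes named above also overlap a neighbour by span, among them Ndufa11, Ndufb11, Uqcrb, Cox6c, Rps14, Gapdh and, on the same strand, Mef2b. Whether exons overlap was not checked.

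**Figure D5:**
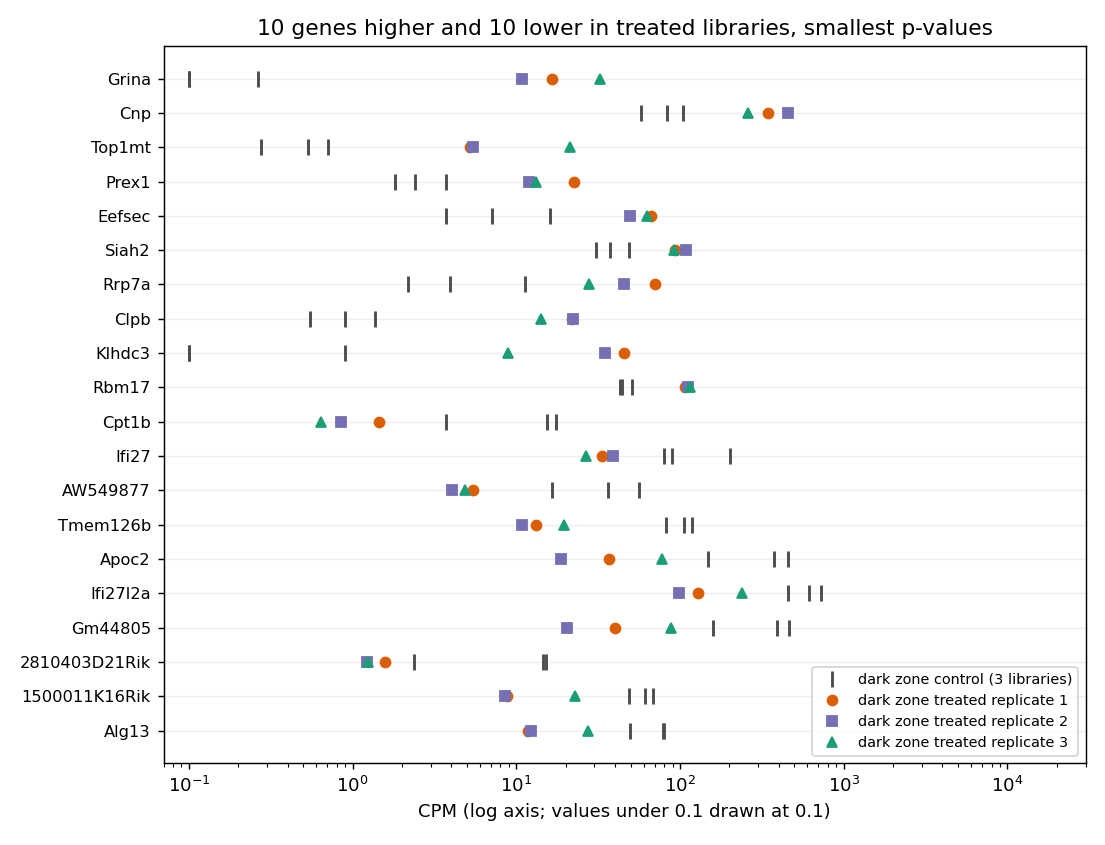
CPM (log axis, values under 0.1 drawn at 0.1) of the 10 genes higher and the 10 lower in treated cells with the smallest p-values among genes whose groups do not overlap. Bars are the 3 dark zone controls and coloured symbols the 3 treated libraries. Absence of overlap was part of the choice, and what the plot adds is the spread, narrow in Siah2 and Rbm17 and wide in Apoc2 and Top1mt.

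Of the 10 lower genes, Tmem126b (chr7:90467438-90476001) is an assembly factor of respiratory complex I. It had 82.7, 106 and 118 CPM in control and 13.2, 10.9 and 19.5 CPM in treated libraries (-2.81, SE 0.65), so treated replicate 3 differed about as much as the other 2. Its difference was -2.51 with the GC and length offset and -2.37 in the fit of 9 libraries. Cpt1b, which imports fatty acids into mitochondria, had 15.5, 17.6 and 3.71 CPM against 1.45, 0.853 and 0.641 CPM (-3.63, SE 0.80). Light zone cells had 0.458 to 1.25 CPM of Cpt1b in both conditions, and the difference of the effects between zones was -3.66 (SE 1.06). Cpt1b shares bases with the transcript model Gm44502 on the same strand.

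Apoc2, an apolipoprotein, had 454, 375 and 149 CPM in control and 36.9, 18.9 and 78.0 CPM in treated libraries (-2.87, SE 0.67). Gm44805 is a model whose span overlaps Apoc2 and Apoc4 on the same strand. Its values of 464, 389 and 158 CPM against 40.1, 20.3 and 88.4 CPM may rest on shared reads. Alg13, which acts in protein glycosylation, had 80.3, 78.2 and 49.6 CPM against 11.8, 12.3 and 27.5 CPM (-2.01, SE 0.55) and -0.92 with the offset. AW549877 had 55.8, 16.4 and 36.1 CPM against 5.41, 4.04 and 4.85 CPM (-2.92, SE 0.68). The last 2 of the 10, 2810403D21Rik (-2.97, SE 0.75) and 1500011K16Rik (-2.15, SE 0.58), are named only.

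A second choice took the 10 genes per direction with the widest gap between the groups, which is a description and no test. Beside Cdkn1a and Grina it named Lrrc75a, Klhl11 and Fndc11, all at 0 CPM in every control. Lrrc75a had 9.60, 8.03 and 28.5 CPM in treated libraries (at least 89.3-fold higher). In the light zone Lrrc75a was 0.196, 22.6 and 0 CPM in control and 0.410, 11.3 and 0.103 CPM in treated libraries, so both levels occurred in untreated cells. Klhl11 (3.06, 3.79 and 55.1 CPM) and Fndc11 (1.13, 0.885 and 29.9 CPM) were carried by treated replicate 3. Tlr9, the endosomal sensor of DNA, had 0.548, 0.101 and 0.318 CPM in control and 6.12, 8.85 and 20.0 CPM in treated libraries (5.16, SE 1.54). Adprhl2, Jmjd7, Igsf8 and Tfip11 completed the higher set, each at or below 1.49 CPM in every control. Jmjd7 shares bases with Gm28042 on its own strand.

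On the lower side the widest gaps included Zfp54, a zinc finger gene, with 41.3, 72.7 and 65.1 CPM in control and 6.15, 7.87 and 7.49 CPM in treated libraries (-3.06, SE 1.06). Teddm1b had 15.4, 27.8 and 14.7 CPM against 1.58, 1.99 and 2.80 CPM (-3.18, SE 0.998). Ms4a6d, a gene of myeloid cells, had 36.8, 26.4 and 7.32 CPM against 0.676, 1.33 and 0.0401 CPM. Serf1, Zxdb, 2900076A07Rik, 1700001G11Rik, Gm11423, Gm4532 and Tmem126b made up the rest. In 7 of these 10 genes treated replicate 3 was at or below 0.0801 CPM, the exceptions being Zfp54, Teddm1b and Tmem126b.

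T cell, macrophage and natural killer cell markers had higher list medians in treated replicates 1 and 2 than in the other 4 dark zone libraries. Stromal and endothelial markers were highest in treated replicate 3 (0.57). Of 24 T cell markers 19 were tested and 14 of these were higher (median 1.07), and of 23 macrophage markers 19 were tested and 14 higher (median 1.41). The defining T cell gene Cd4 was at 0 in 1 control and at most at 1.87 CPM in the dark zone. Their library medians were 1.69, 2.20 and 0.22 for T cells and 2.69, 3.11 and 0.00 for macrophages. Summed over the list, however, macrophage markers were 1102 to 1409 CPM in control and 1037, 954 and 1183 CPM in treated libraries, and T cell markers 258 to 353 against 250 to 384 CPM. In bulk RNA, fewer cells of a type and less RNA per cell cannot be told apart, and which cells these transcripts came from was not tested. Erythroid markers summed to 1481 CPM in the first control and to 76.8 to 170 CPM in the other 5 dark zone libraries. Neutrophil markers summed to 117 to 148 CPM in control and 24.99, 30.8 and 58.8 CPM in treated libraries. Only 4 of 13 neutrophil markers were tested, 2 higher and 2 lower. Their median was 1.005, with library medians of 1.189, 1.555 and -0.628, so sum and median went opposite ways in treated replicates 1 and 2. The immediate early and dissociation list, genes induced by stress, handling or activation, had 15 of 17 higher (median 1.14). Its library medians were 1.56, 1.80 and 0.80, above the highest control at 0.54, and its median was 0.40 with the offset and 0.55 in the fit of 9 libraries. The part of these markers in the results was not tested. B lineage markers had 5 of 12 higher (median -0.17).

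The effect in the dark zone was set against that in the light zone by an interaction in the same fit. Of 12081 genes, 0 (0%) had an adjusted p under 0.05 by edgeR's quasi-likelihood test with Benjamini-Hochberg adjustment, and the smallest adjusted p was 0.9999. At an unadjusted p under 0.05 there were 275 genes (2.28%), and DESeq2 called 16. Among the genes named above, Eefsec stood at 22.2 to 37.5 CPM in light zone control and 21.5 to 57.1 CPM in treated libraries (difference of the effects 2.54, SE 0.87). Ezh2 had 40.5 to 68.3 CPM in light zone control and 86.3 to 129 CPM in treated libraries, and its effect in the dark zone was lower by 1.21 (SE 0.56). Neither difference between zones passed the adjusted threshold.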

How the data were processed

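Total RNA of 1000 sorted cells per library was amplified with the SMART-Seq v4 kit and made into libraries with Nextera XT, per the labels' protocols. Per the submitters' processing notes the reads were aligned with BWA to mm10; the program that counted them is not stated there. Values deposited by the authors are expected counts for each gene symbol, without scaling. In 2595 of 12212 symbols some values lie midway between whole numbers, and whether they are means over transcripts is not known, in which case they are not counts per gene. They were rounded up, and blanks were read as 0. Totals of 16032746 to 26837714 give 3 counts a level of 0.078 to 0.206 CPM, for counting error only.

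All 12 libraries entered edgeR 4.0.16 (R 4.3.3) with TMM factors, filterByExpr (minimum count 10, minimum total 15), a term per group and robust quasi-likelihood tests, two-sided, adjusted by Benjamini-Hochberg at 0.05. Of the symbols, 12081 were tested. The script was tested on simulated data. DESeq2 1.42.0 and limma 3.58.1 (voom with quality weights) were alternatives. Log2 CPM used a prior count of 2. Transcript length and GC content, for 11288 genes, are medians over a gene's protein-coding transcripts in GENCODE M21 (mm10). Positions came from the same release. The offset is a loess fit (span 0.5) of each library on GC content and length, added after the data were seen. A standard error is the log2 difference over the square root of F.

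Libraries, gene lists and tests were chosen with earlier results of these data known. Named genes are 10 per direction by smallest p (without overlap, at least 2-fold, 10 CPM), 10 per direction by widest gap, the 4 most expressed of each list and a fixed set; others are marked as chosen after their values were seen. Lists are described by counts and medians, without a test. A few genes are not reported here.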

Additional observations from a re-analysis of the deposited data

Results flagged for a closer look

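Gm11423, a predicted gene of unknown function, had fitted differences of opposite sign in the zones. It had 9.60, 19.0 and 11.5 CPM in dark zone control and 1.74, 0.284 and 0 CPM in dark zone treated libraries, against 0, 0 and 0 CPM in light zone control and 9.59, 0.853 and 0.0516 CPM in light zone treated libraries. The light zone difference was carried mainly by treated replicate 1. The difference between the effects in the zones was -13.592 on the log2 scale. That value did not pass edgeR's adjusted threshold, and it depends on the prior count because 1 group is at 0 throughout.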

How the results depend on the processing

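edgeR called 0 genes in the dark zone, and 0 for the difference between zones, under each of its settings: RLE factors, plain library sizes, no filter, whole-valued symbols only, 9 libraries, the GC and length offset (chosen after seeing the data), and every fit without 1 library (0 to 0 genes). Fitting the 6 dark zone libraries alone also gave 0 in the dark zone. At an unadjusted p under 0.05 the dark zone counts were 410 without treated replicate 2, 427 without treated replicate 1, 467 without control replicate 2, 605 without control replicate 1, 1262 without control replicate 3, 2233 without treated replicate 3 and 478 with 9 libraries, against 1075 in the full fit. DESeq2 called 73 genes in the dark zone and 16 for the difference between zones. Voom with quality weights called 3073 in the dark zone, 1191 higher and 1882 lower, giving treated replicates 1, 2 and 3 weights of 4.70, 5.43 and 0.237, and 0 between zones. The cause of these differences was not tested.

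Replicate numbers are shared across groups, but the labels do not say that they mark the same mice. Deviations from the group means of same-numbered dark zone control and treated libraries correlated at -0.18 to 0.04, 0 of 3 pairs above 0.1, and 1 of 3 correlated best with its own number. Between zones, treated pairs correlated at -0.31 to 0.54 (2 of 3 above 0.1) and control pairs at -0.003 to 0.12 (1 of 3). With a replicate block edgeR called 0 genes, with 1090 at an unadjusted p under 0.05.

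List medians of complexes I, III and IV, ATP synthase and both ribosomal protein lists kept their sign in 16 of 16 other settings. All but the fit of 9 libraries keep treated replicate 1, treated replicate 2 or both, which stood furthest below the controls in the respiratory lists. The fit of 9 libraries rests on treated replicate 3 alone, and its median of all genes was also negative (-0.11). In the fit of 9 libraries the sign turned for 22 of 46 lists, among them glycolysis (-0.11), MHC class I (-0.13), interferon-stimulated genes (-0.88), cholesterol synthesis (-0.03), unfolded protein response (-0.10), T cell markers (-0.30) and macrophage markers (-0.21).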
